A study of Rattus norvegicus with 10 samples.

Results

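The genes described are 10 genes of DNA replication and the cell cycle: the replication clamp Pcna, the 6 subunits of the replicative helicase Mcm2 to Mcm7, the proliferation markers Mki67 and Top2a, and the cyclin gene Ccnd2. They were chosen by symbol, each stands on 1 of the 25269 loci of the deposited table, and all 10 were found. The libraries come from poly-A selected total RNA of the hippocampus of male Sprague-Dawley rats of 200 to 240 g. Of these, 5 libraries came from rats with a traumatic brain injury (TBI) made by fluid percussion, in which a pulse of fluid strikes the brain's covering, and 5 came from rats with sham surgery. All animals were tested for learning and killed 1 week after surgery. The labels give no age, and they leave unsaid whether every library had its own rat, so a p-value here refers to the variation among libraries, some of which may be technical. A whole hippocampus mixes neurons, glia, vessels and dividing precursors, and in such RNA fewer cells of a type cannot be told apart from less RNA per cell.

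Before a cell copies its DNA, the origin recognition complex and its helpers load a ring of 6 different MCM proteins onto each origin, which later unwinds the double helix. Pcna is the sliding clamp that holds DNA polymerase on the template, and it also serves DNA repair in cells that do not divide. Ki-67, the product of Mki67, coats mitotic chromosomes, and topoisomerase IIα, the product of Top2a, untangles them. Cyclin D2 activates the kinases Cdk4 and Cdk6 early in the cycle. In the adult rodent hippocampus the dividing cells are mainly the progenitors of granule neurons in the dentate gyrus and the precursors of oligodendrocytes, while microglia and vascular cells can divide after injury. Many replication genes carry sites for E2F transcription factors near their start, and several late cell cycle genes carry CCAAT boxes and the cell cycle gene homology region (CHR).

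RefSeq promoters of the GRCr8 build, reaching from 250 bases before to 50 bases after the annotated start, were at hand for 8 of the 10 genes, and Mcm4 and Ccnd2 had no entry. An E2F-type motif, spelled TTTCCCGC, TTTCGCGC, TTTGCCGC or TTTGGCGC and searched on both strands, was present in 5 of these 8 promoters, all of them MCM subunits, and in 2.14% of all 33469 promoters. The 5 MCM stretches of 80 bases are printed to show the motif that these subunits share, with the matches in capitals.
Mcm2, chr4:122918061-122918140, minus strand: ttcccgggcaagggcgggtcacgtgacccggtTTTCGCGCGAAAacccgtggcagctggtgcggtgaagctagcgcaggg
Mcm3, chr9:30733709-30733788, minus strand: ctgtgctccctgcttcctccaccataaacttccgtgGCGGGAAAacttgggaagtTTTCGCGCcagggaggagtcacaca
Mcm5, chr19:13488769-13488848, plus strand: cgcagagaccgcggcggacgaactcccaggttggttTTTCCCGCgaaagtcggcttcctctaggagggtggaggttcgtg
Mcm6, chr13:42404444-42404523, minus strand: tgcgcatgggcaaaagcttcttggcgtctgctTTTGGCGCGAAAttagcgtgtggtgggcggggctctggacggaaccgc
Mcm7, chr12:22163187-22163266, minus strand: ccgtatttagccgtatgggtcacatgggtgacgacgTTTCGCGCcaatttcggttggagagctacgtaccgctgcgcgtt

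In Mcm2 and Mcm6 a match on one strand overlaps a match on the other, so that a single block of capitals holds both. In Mcm7 the last base of the match is also the first base of a CCAAT box, and a further match lies outside the printed stretch, as does an overlapping pair in Mcm5. Counted from the annotated start, with bases before it negative, the first base of the printed match is at -14 in Mcm2, -8 in Mcm5, -52 in Mcm7 and -139 in Mcm6, and Mcm3 has matches at -6 and 14. The other 3 genes with a promoter held none of these letters in the window. For them the capitals in the stretches below mark CCAAT boxes (CCAAT, both strands) and CHR matches (TTTGAA, both strands).
Mki67, chr1:199952650-199952729, minus strand: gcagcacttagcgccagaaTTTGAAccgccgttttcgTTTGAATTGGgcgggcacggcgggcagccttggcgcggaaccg
Top2a, chr10:84473073-84473152, minus strand: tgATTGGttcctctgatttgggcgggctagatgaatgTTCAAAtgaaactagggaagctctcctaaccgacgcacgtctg
Pcna, chr3:139955946-139956025, minus strand: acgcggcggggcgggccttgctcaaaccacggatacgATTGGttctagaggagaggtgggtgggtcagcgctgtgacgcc

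In Mki67 the second CHR match and a CCAAT box share a base. A CCAAT box was found in 7 of the 8 promoters, all but Mcm2, and in 37.5% of all promoters. A CHR match was found in 3, Mki67, Top2a and Mcm2, and in 18.3% of all promoters. A match is a description of letters, not of binding, and binding was not measured here.

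**Figure D1:**
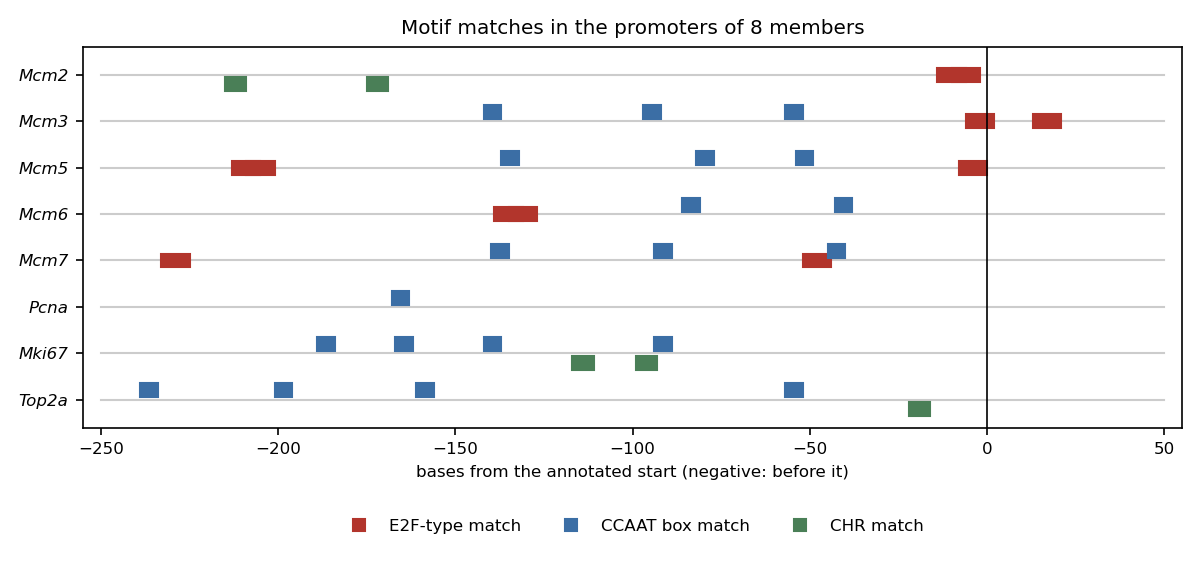
Motif matches along the promoters of the 8 genes with an entry, by distance in bases from the annotated start. Red blocks are E2F-type matches, blue blocks CCAAT boxes and green blocks CHR matches, on either strand, and the red blocks appear in the 5 MCM rows.

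The values are FPKM, fragments scaled to transcript length and to the library's mapped fragments, so levels of different genes can be set side by side per length. The sums of FPKM over all loci lay between 539094 and 596214 in TBI and between 523239 and 629660 in sham. Absolute depth is unknown, but low loci showed steps of whole fragments. In the 28 pairs among the libraries numbered 2 to 5, between 29.5% and 55.2% of the loci under 0.06 FPKM in both libraries had the pair's commonest ratio, against 3.17% to 8.05% in the 17 pairs that include TBI 1 or sham 1, so these 2 libraries stand apart, for a reason that was not tested. One fragment was worth 1.503 times as much in TBI 2 as in sham 3, and between 0.948 and 1.07 times as much in the other 6 of those libraries, which makes TBI 2 the shallowest of these 8. All 10 hippocampal neuron markers had an entry in the deposited table, and 8 of them were high enough in level to be tested. Spink8 and Fibcd1 were listed at 0 in at least 1 library. The summed level of the 10 ran from 2336 to 4556 FPKM in TBI and from 3587 to 4896 FPKM in sham. Neuron marker transcripts were thus present in every library, but whether they came from the hippocampus was not tested.

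Across the 10 libraries the 10 genes spanned a wide range of levels, and some neighbours in the order were separated beyond their spread while others overlapped. Ccnd2 averaged 37.4 FPKM and Pcna 31.8 FPKM over all libraries. Ccnd2 lay above Pcna in 8 of 10 libraries, and their ranges overlapped. Mcm7, at 6.24 FPKM, and Mcm4, at 4.82 FPKM, came next, and the ranges of Pcna, Mcm7 and Mcm4 did not touch. Mcm2, at 1.57 FPKM, and Mcm6, at 1.46 FPKM, formed a pair whose order changed between libraries, since Mcm2 was the higher in 3 of 10. Below them stood Mki67 at 0.722 FPKM, Mcm3 at 0.553, Mcm5 at 0.361 and Top2a at 0.290 FPKM. Neighbours among these 4 overlapped in range, although Mcm3 lay above Mcm5 in 10 of 10 libraries. Among all named genes of the table, Ccnd2 stood at percentile 86.9 of mean level and Pcna at 84.6, while Mki67 stood at 33.0 and Top2a at 28.7.

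Setting TBI against sham asks whether replication and cell cycle transcripts differ 1 week after the injury. None of the 8 genes that could be tested passed limma's test with Benjamini-Hochberg adjustment over all 16194 rows, where 0 rows passed and the smallest adjusted p was 0.698, or 0.983 among the 8. Those rows are all loci with a mean of at least 0.5 FPKM, with loci of one symbol summed, and differences are on the log2(FPKM + 0.5) scale, which understates the change of low genes. At an unadjusted p under 0.05 stood 1 of the 8, Pcna, against 2.91% of all rows tested (472 of 16194, 1.41% higher and 1.51% lower in TBI). A higher mean log2 value in TBI was found for 7 of the 8, all but Mcm7, against 50.4% of all rows. The median log2 difference of the 8 was 0.11, against 0.00 over all rows, and none of the 10 genes separated the groups without overlap, as 0.482% of all rows did. Top2a and Mcm5 lay below the filter and have no test in this fit.

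**Figure D2:**
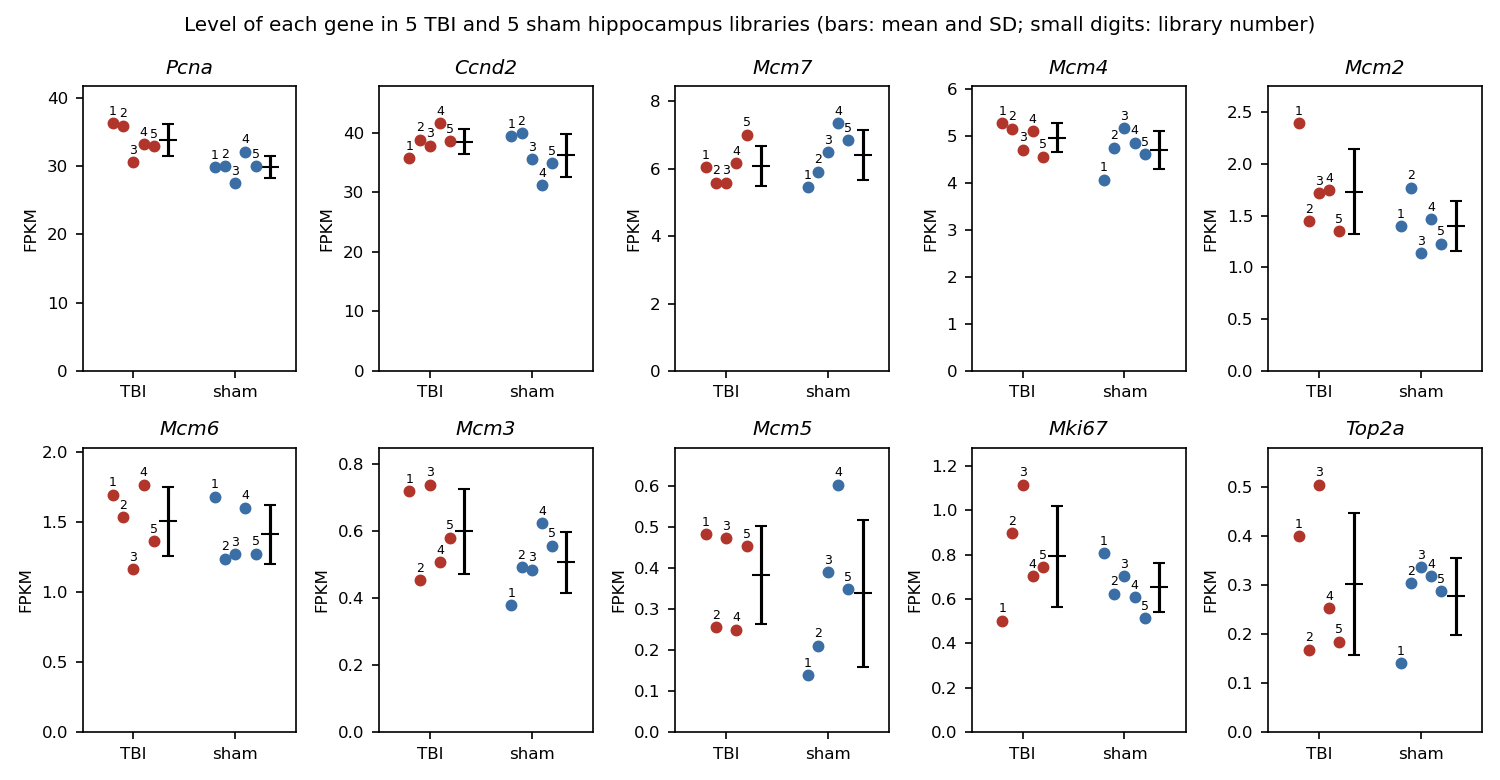
Level in FPKM of each of the 10 genes in the 5 TBI libraries (red) and the 5 sham libraries (blue), with the mean and SD beside the points and the library number above each. For Pcna 4 of the 5 TBI points lie above every sham point, while for each other gene at least 3 TBI points lie within or below the sham range.

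Pcna, the replication clamp, was at 36.3, 35.9, 30.6, 33.2 and 32.9 FPKM in TBI 1 to 5, against 29.8, 30.0, 27.5, 32.1 and 29.9 FPKM in sham 1 to 5. In TBI 1, TBI 2, TBI 4 and TBI 5 it lay above every sham library, and TBI 3 lay within the sham range, below sham 4. The means were 33.8 ± 2.35 FPKM in TBI and 29.9 ± 1.65 FPKM in sham (SD, n = 5 each), a ratio of 1.13. The log2 difference was 0.17 (SE 0.071, 95% interval 0.017 to 0.33), with limma's unadjusted p = 0.0327 and adjusted p = 0.983. Pcna ranked 285th of 16194 rows by p. Over 24 alternatives its unadjusted p ran from 0.0107 to 0.0870 and was under 0.05 in 16, while its adjusted p in limma's test ran from 0.592 to 1.00. The difference kept its sign in all 24, between 0.14 and 0.21, although some of them, such as those of filter and trend, cannot change it.

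The 6 MCM subunits stand in the helicase in equal number, but their transcripts did not. Mcm7 made up 39.9 ± 3.50% of the summed MCM FPKM in TBI and 43.3 ± 2.05% in sham, and Mcm4 made up 32.5 ± 2.15% in TBI and 31.8 ± 2.01% in sham (SD, n = 5 each). Mcm2 followed with 11.3 ± 2.11% in TBI and 9.55 ± 1.92% in sham, and Mcm6 with 9.85 ± 1.32% in TBI and 9.65 ± 1.84% in sham. Mcm3 had 3.93 ± 0.820% in TBI and 3.42 ± 0.370% in sham, and Mcm5 had 2.51 ± 0.760% in TBI and 2.23 ± 1.02% in sham. Mcm7 was 11.8 to 24.6 times as high as Mcm5 in TBI and 12.2 to 39.1 times as high in sham. Such ratios depend on the length given to each locus. The summed level of the 6 was 15.3 ± 0.916 FPKM in TBI and 14.8 ± 1.21 FPKM in sham, with ranges of 14.4 to 16.6 in TBI and 13.1 to 16.5 in sham. The ranges of the groups overlapped for most of their width.

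**Figure D3:**
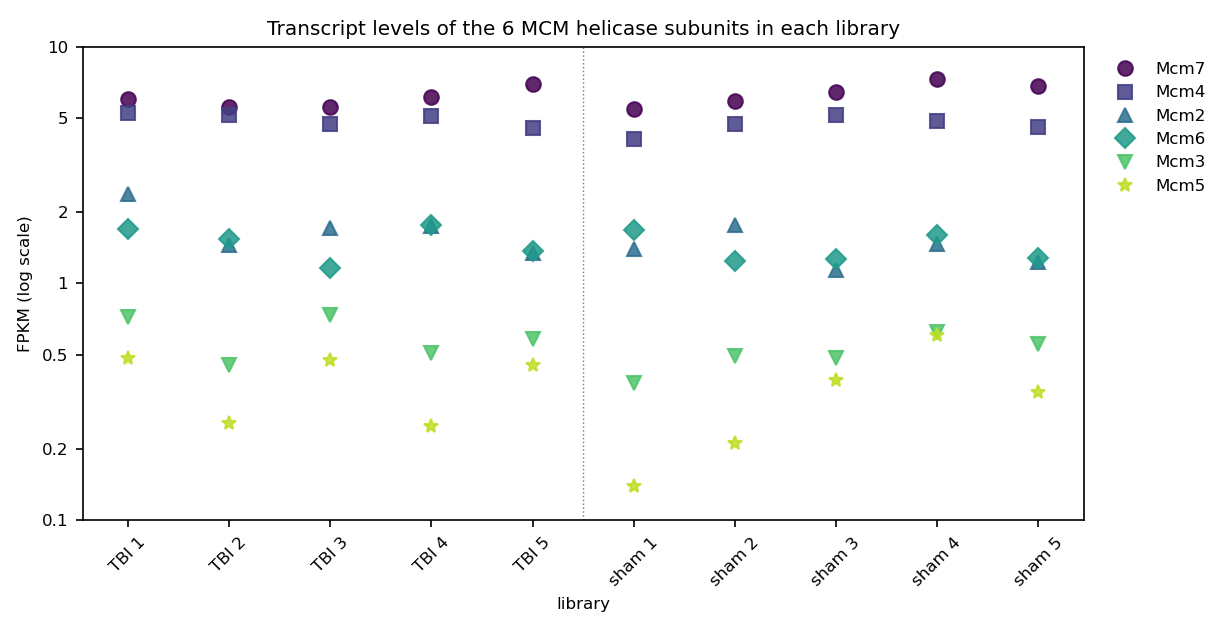
FPKM, on a log scale, of Mcm2 to Mcm7 in each of the 5 TBI libraries (left of the dotted line) and the 5 sham libraries (right of it). In every library Mcm7 is highest and Mcm4 next, Mcm2 and Mcm6 lie close together, and Mcm3 and Mcm5 are lowest.

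Mcm2, the subunit whose tail binds histones, was at 2.39, 1.45, 1.72, 1.75 and 1.35 FPKM in TBI 1 to 5, against 1.40, 1.77, 1.14, 1.46 and 1.23 FPKM in sham 1 to 5. TBI 1 stood above every other library, and the other 4 TBI libraries lay within the sham range. Its log2 difference of 0.22 (SE 0.15, 95% interval -0.11 to 0.56) was the largest among the 8 tested genes, with limma's adjusted p = 0.983, and it was 0.13 without TBI 1.

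Mcm7 was the only tested gene with a lower mean in TBI. It was at 6.05, 5.59, 5.58, 6.16 and 7.01 FPKM in TBI 1 to 5, against 5.46, 5.91, 6.48, 7.35 and 6.84 FPKM in sham 1 to 5. All 5 TBI values lay within the sham range. The log2 difference was -0.07 (SE 0.10, 95% interval -0.29 to 0.15), and with single libraries left out it ran from -0.12 (without sham 1) to -0.02 (without sham 4).

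Mcm4 was at 5.27, 5.15, 4.70, 5.10 and 4.55 FPKM in TBI 1 to 5, against 4.07, 4.75, 5.16, 4.86 and 4.61 FPKM in sham 1 to 5. Apart from sham 1, which was lowest, the libraries of the groups were interleaved. The log2 difference was 0.07 (95% interval -0.12 to 0.27), and it was 0.03 without sham 1 and 0.0083 without both libraries numbered 1. Mcm6 ran from 1.17 to 1.77 FPKM in TBI and from 1.24 to 1.68 FPKM in sham, with a log2 difference of 0.07 (95% interval -0.22 to 0.35). The difference of Mcm6 turned to -0.02 under quantile normalization and ran from 0.02 (without TBI 4) to 0.13 (without TBI 3) with single libraries left out. Mcm3 ran from 0.453 to 0.738 FPKM in TBI and from 0.379 to 0.624 FPKM in sham, with a log2 difference of 0.12 (95% interval -0.18 to 0.43). That of Mcm3 was 0.08 without TBI 3, 0.08 without sham 1 and 0.04 without both libraries numbered 1.

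Mcm5, too low for the filter, was at 0.483, 0.257, 0.473, 0.250 and 0.453 FPKM in TBI 1 to 5, against 0.140, 0.211, 0.390, 0.603 and 0.349 FPKM in sham 1 to 5. The sham libraries span both the lowest and the highest value, with all 5 TBI values between them. With no filter on level, Mcm5 had a log2 difference of 0.09 (SE 0.16) and limma's adjusted p was 0.974 over 21281 rows. Without both libraries numbered 1 the difference was -0.04.

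The proliferation markers were low. Mki67 was at 0.503, 0.895, 1.11, 0.704 and 0.742 FPKM in TBI 1 to 5, against 0.807, 0.624, 0.704, 0.609 and 0.515 FPKM in sham 1 to 5. TBI 3 and TBI 2 were the 2 highest libraries, but TBI 1 was the lowest of all 10. The means were 0.791 ± 0.228 FPKM in TBI and 0.652 ± 0.110 FPKM in sham (SD, n = 5 each). The log2 difference was 0.15 (SE 0.15, 95% interval -0.19 to 0.49), with limma's adjusted p = 0.983, and it was 0.24 without TBI 1 and 0.07 without TBI 3. TBI 3 also had the highest summed microglia markers, 361 FPKM, where the other TBI libraries lay between 221 and 268 FPKM and the sham libraries between 206 and 275 FPKM. It likewise had the highest summed oligodendrocyte precursor markers, at 171 FPKM, within a range of 127 to 171 FPKM in TBI and 107 to 158 FPKM in sham. Its summed blood cell markers were the highest too, at 1017 FPKM. Over the 10 libraries Mki67 had a Pearson r of 0.51 but a Spearman rho of 0.13 with the summed microglia markers. With the precursor markers its r was 0.69 and rho 0.71. The part of any of these cells in the Mki67 level was not tested.

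Top2a, below the filter, was at 0.400, 0.169, 0.505, 0.253 and 0.185 FPKM in TBI 1 to 5, against 0.141, 0.304, 0.337, 0.318 and 0.287 FPKM in sham 1 to 5. TBI 1 and TBI 3 lay above every sham library and the other 3 TBI libraries lay below sham 5, so TBI libraries lay both above and below most sham libraries. With no filter on level, limma's log2 difference was 0.03 (SE 0.13), with an adjusted p of 0.986, and under 7 of 24 alternatives its sign turned. Mki67 and Top2a, both read as marks of dividing cells, did not order the libraries alike: their Pearson r was -0.01 over the 10 libraries and 0.30 over the 8 numbered 2 to 5.

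Cyclin D2, the G1 cyclin of neural progenitors, was at 35.7, 38.9, 37.8, 41.6 and 38.6 FPKM in TBI 1 to 5, against 39.4, 39.9, 35.6, 31.2 and 34.9 FPKM in sham 1 to 5. The highest value was in TBI 4, and sham 1 and sham 2 lay above 4 of the 5 TBI libraries. The means were 38.5 ± 2.12 FPKM in TBI and 36.2 ± 3.57 FPKM in sham (SD, n = 5 each). The log2 difference was 0.09 (SE 0.081, 95% interval -0.09 to 0.27), with limma's adjusted p = 0.983. It was 0.04 without sham 4, the lowest library, and 0.16 with array weights. Over the 10 libraries Ccnd2 had a Pearson r of -0.61 (Spearman rho -0.54) with the summed neural stem cell and progenitor markers.

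**Figure D4:**
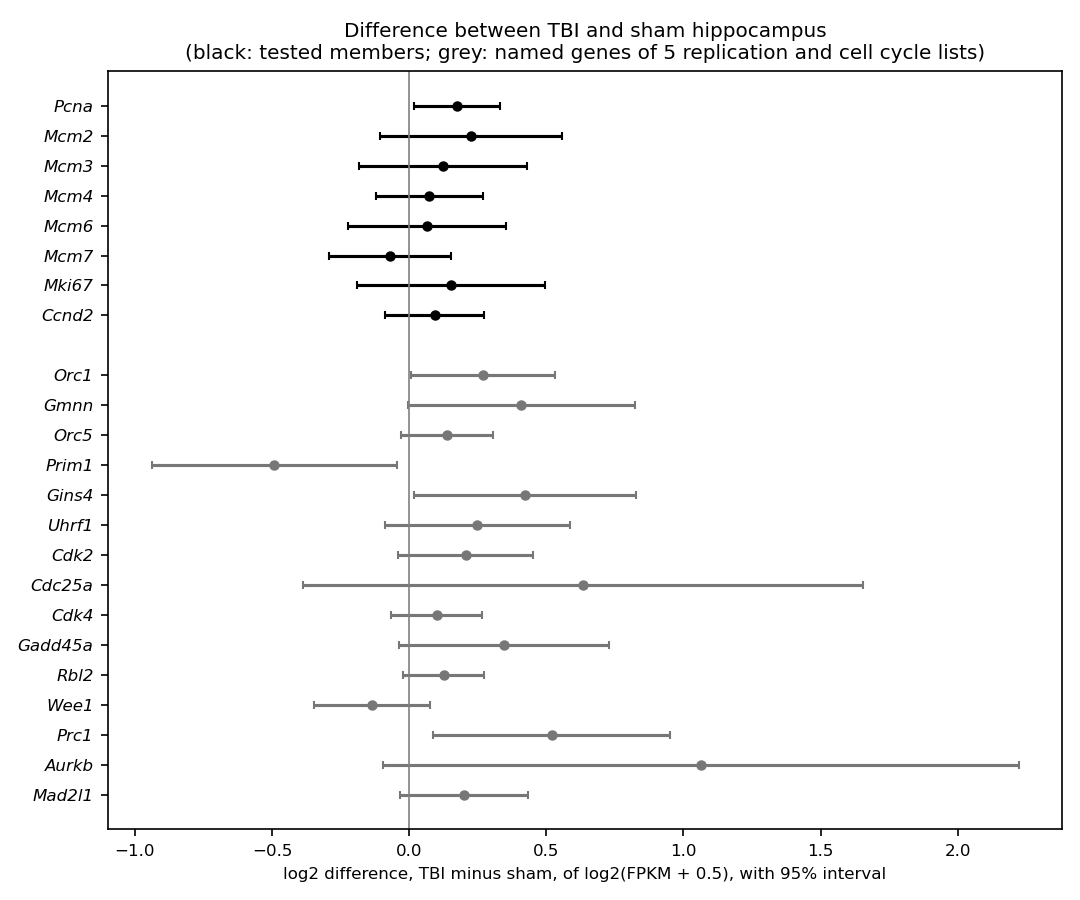
Log2 difference of TBI minus sham with its 95% interval from limma, for the 8 tested genes (black) and for the 15 named genes of the wider replication and cell cycle lists (grey). Intervals lie above 0 for Pcna, Orc1, Gins4 and Prc1 and below 0 for Prim1, before any adjustment, and cross 0 for the others.

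The 10 genes did not move as a block from library to library. Over their 45 pairs the median Pearson r of log2 values was 0.09, with a range from -0.74 (Mcm5 and Ccnd2) to 0.84 (Mcm3 and Mcm5), and 7 pairs were above 0.5. Among the 15 pairs of MCM subunits the median was 0.27, and -0.04 with the 8 libraries numbered 2 to 5. Mcm3 and Top2a had an r of 0.80, Mcm5 and Top2a of 0.60, and Pcna and Mcm2 of 0.60. These values describe 10 libraries of both groups that share scaling and tissue makeup, with no test. Since TBI 1 and sham 1 are the libraries that stand apart, the same values were read over the other 8. They were 0.68 for Mcm3 and Top2a, 0.74 for Mcm3 and Mcm5, 0.37 for Mcm5 and Top2a, and 0.34 for Pcna and Mcm2.

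Genes whose log2 levels closely followed a member's over the 10 libraries were taken by the highest Pearson r among 10526 named genes of at least 1 FPKM. Pcna was followed by Odf2l (r = 0.88, Spearman rho 0.79), Fam175b (0.86) and Terf1 (0.85). Mki67 was followed by Slc9a9 (r = 0.89, rho 0.93) and Csnk1g1 (0.89), and Top2a by Cad (r = 0.91, rho 0.95), Raver1 (0.91) and Rere (0.90). Ccnd2 was followed by Epb41l4a (r = 0.92, rho 0.79), Casc4 (0.92) and Apoo (0.89). The summed MCM level was followed by Pgpep1 (r = 0.94, rho 0.93), Pdgfra (r = 0.94, rho 0.90) and Tmod3 (0.93). Pdgfra, which encodes a growth factor receptor of oligodendrocyte precursors, was at 19.1, 10.9, 12.2, 14.7 and 14.9 FPKM in TBI 1 to 5, against 10.96, 12.5, 14.4, 17.5 and 13.6 FPKM in sham 1 to 5. TBI 1 and sham 4 were the highest of their groups in both Pdgfra and the summed MCM level. They were also the highest of their groups in Col1a1, a meninges and matrix marker, at 30.5 FPKM in TBI 1 and 34.3 FPKM in sham 4. In the summed meninges and matrix markers TBI 1 was highest, while sham 4 (548 FPKM) lay below sham 2 (836 FPKM). In the summed oligodendrocyte precursor markers TBI 1 ranked 8 and sham 4 ranked 7 from the top of the 10 libraries. The summed level of all 8 oligodendrocyte precursor markers had an r of -0.34 with the MCM sum, while the summed progenitor markers had an r of 0.64 with it. By single gene the progenitor markers had an r of 0.78 with Mcm5, 0.72 with Mcm7 and 0.66 with Mcm3. With Mcm2, Mcm4 and Mcm6 their r was 0.02, 0.05 and -0.04. Values as large were found with other lists. Mcm2 had an r of 0.77 with the blood cell markers, -0.77 with the hippocampal neuron markers and -0.75 with the astrocyte markers. The blood cell markers had an r of 0.69 with Mcm3 and 0.72 with Top2a, but -0.18 with Mcm6 and -0.23 with Mcm7. The hippocampal neuron markers had an r of -0.72 with Mcm6 and -0.63 with Pcna, but 0.10 with Mcm7. The MCM sum also had an r of 0.60 with the summed meninges and matrix markers. Mki67 had an r of 0.69 with the precursor markers and -0.22 with the progenitor markers. Like those above, these are descriptions over 10 libraries. The highest r among 10526 genes over 10 libraries is a description, with no test.

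The wider replication and cell cycle programme was read from 5 lists with 107 genes, of which 94 were measured and 73 were tested. None passed limma's adjustment over all rows (smallest adjusted p 0.983). At an unadjusted p under 0.05 stood 3 genes higher and 1 lower in TBI, 5.48% of the 73 against 2.91% of all rows. Of the 73, 50 had a higher mean log2 value in TBI, 68.5% against 50.4% of all rows, and the median log2 difference was 0.06 against 0.00. None separated the groups without overlap.

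**Figure D5:**
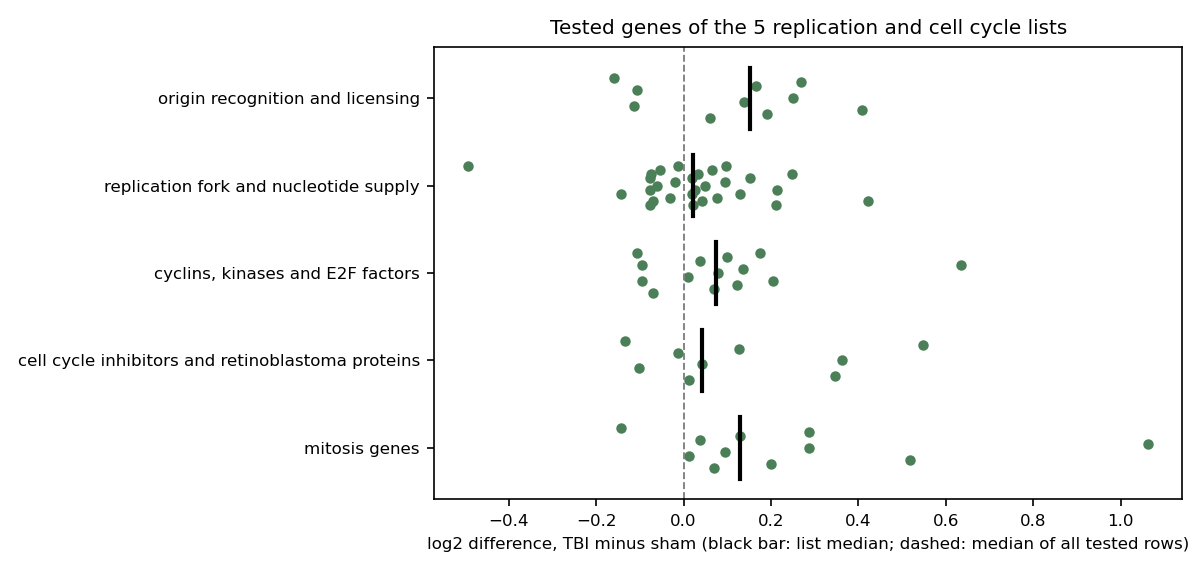
Log2 difference of TBI minus sham for each tested gene of the 5 lists, with the list median as a black bar and the median of all 16194 rows as a dashed line. The list medians lie between 0.02 and 0.15, and the Aurkb point at 1.06 lies farthest out.

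Origin recognition and licensing genes had 7 of 10 tested members with a higher mean log2 value in TBI and a median log2 difference of 0.15. Orc1, the largest subunit of the origin recognition complex, summed over 2 loci, was at 1.33, 1.23, 1.29, 1.24 and 1.12 FPKM in TBI 1 to 5, against 0.937, 1.14, 1.09, 0.761 and 0.833 FPKM in sham 1 to 5. In 4 of 5 TBI libraries it lay above every sham library (log2 difference 0.27, SE 0.12, limma's adjusted p = 0.983). Geminin (Gmnn), which blocks a second loading of helicases, averaged 3.75 ± 0.868 FPKM in TBI and 2.72 ± 0.761 FPKM in sham (SD, n = 5 each; log2 difference 0.41, SE 0.19). Orc5, another subunit, averaged 13.1 ± 0.527 FPKM in TBI and 11.9 ± 1.05 FPKM in sham. The loading factors Cdc6 and Cdt1 and the later factor Mcm10 lay below the filter.

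Replication fork and nucleotide supply genes had 17 of 29 tested members with a higher mean log2 value in TBI and a median of 0.02. Prim1, the catalytic subunit of primase, was at 7.45, 8.88, 14.0, 9.29 and 13.9 FPKM in TBI 1 to 5, against 17.1, 10.5, 14.8, 19.1 and 14.1 FPKM in sham 1 to 5. TBI 1, TBI 2 and TBI 4 lay below every sham library, while TBI 3 and TBI 5 lay above sham 2. Its log2 difference was -0.49 (SE 0.20), with limma's unadjusted p = 0.0337 and adjusted p = 0.983. Gins4, a subunit of the complex that joins the helicase, ran from 3.19 to 6.19 FPKM in TBI and from 2.19 to 3.65 FPKM in sham (log2 difference 0.42, SE 0.18), with TBI 1 far above the rest, and the difference was 0.28 without TBI 1. Uhrf1, which guides maintenance of DNA methylation, averaged 1.37 ± 0.191 FPKM in TBI and 1.09 ± 0.276 FPKM in sham (SD, n = 5 each).

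Among cyclins, kinases and E2F factors 10 of 14 tested genes had a higher mean log2 value in TBI, with a median of 0.08 and none at an unadjusted p under 0.05. Cdk2, the kinase of S phase, averaged 1.88 ± 0.260 FPKM in TBI and 1.55 ± 0.0944 FPKM in sham, and Cdk4, a partner of the D cyclins, 34.4 ± 3.31 FPKM in TBI and 32.0 ± 1.09 FPKM in sham (SD, n = 5 each). Cdc25a, a phosphatase that activates these kinases, was at 14.3 FPKM in TBI 1 and at 1.81 to 2.11 FPKM in the other TBI libraries, against 1.502 to 1.834 FPKM in sham. Its log2 difference of 0.63 was 0.11 without TBI 1. Cyclin A2 (Ccna2), cyclin B2 (Ccnb2) and Cdk1, which act from S phase to mitosis, lay below the filter.

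Cell cycle inhibitors and retinoblastoma proteins had 6 of 9 tested members with a higher mean log2 value in TBI, a median of 0.04 and none at an unadjusted p under 0.05. Gadd45a, a stress-induced gene summed over 2 loci, averaged 7.46 ± 1.93 FPKM in TBI and 5.65 ± 0.746 FPKM in sham. Rbl2, a retinoblastoma relative that keeps cells out of the cycle, averaged 16.5 ± 1.16 FPKM in TBI and 15.1 ± 0.354 FPKM in sham, with 4 of 5 TBI libraries above every sham library. Wee1, a kinase that restrains entry into mitosis, averaged 8.56 ± 0.875 FPKM in TBI and 9.45 ± 0.923 FPKM in sham (SD, n = 5 each).

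Mitosis genes had 10 of 11 tested members with a higher mean log2 value in TBI, 90.9% against 50.4% of all rows, and a median of 0.13. A further 7 measured members lay below the filter. Of these, Ube2c (-0.20), Ndc80 (-0.13), Kif23 (-0.03) and Cenpf (-0.02) had a lower mean log2 value in TBI. Kif11, Kif20a and Nusap1 had a higher one. Prc1, which bundles microtubules of the dividing spindle, summed over 2 loci, was at 6.82, 3.47, 3.35, 3.60 and 4.52 FPKM in TBI 1 to 5, against 3.11, 2.60, 2.92, 1.99 and 3.51 FPKM in sham 1 to 5. TBI 1, TBI 4 and TBI 5 lay above every sham library. The log2 difference was 0.52 (SE 0.20), with limma's unadjusted p = 0.0226 and adjusted p = 0.983. Aurkb, a mitotic kinase, was at 3.40, 0.990, 3.59, 0.879 and 4.47 FPKM in TBI 1 to 5, against 0.296, 2.30, 0.255, 0.341 and 2.39 FPKM in sham 1 to 5. Its values split each group into high and low libraries. Mad2l1, of the spindle checkpoint, averaged 3.07 ± 0.281 FPKM in TBI and 2.62 ± 0.315 FPKM in sham (SD, n = 5 each).

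Markers of the cells that could hold dividing cells were read beside these levels. Over 8 measured neural stem cell and progenitor markers the summed level ran from 386 to 453 FPKM in TBI and from 347 to 489 FPKM in sham. Over 10 immature granule neuron markers it ran from 340 to 551 FPKM in TBI and from 422 to 535 FPKM in sham. Over 7 endothelial markers the summed level ran from 80.3 to 102 FPKM in TBI and from 97.2 to 147 FPKM in sham. A higher mean log2 value in TBI was found for 1 of 7, with none past limma's adjustment. It was found for 4 of 6 tested progenitor, 4 of 10 granule neuron, 8 of 8 precursor and 10 of 10 microglia markers. Counts were 2 of 8 for astrocyte, 0 of 8 for hippocampal neuron, 8 of 8 for choroid plexus and 3 of 3 for blood cell markers. The meninges and matrix count was 4 of 8, and 50.4% of all rows were higher. None of these markers passed adjustment, and the part of these cells in the levels above was not tested. Cldn5, a tight junction gene of brain vessels, was named after its values were seen. It ran from 45.3 to 54.3 FPKM in TBI and from 61.3 to 82.4 FPKM in sham. These ranges did not overlap, as was so for 0.482% of all rows tested, while those of the summed endothelial level did. The summed endothelial level had an r of -0.76 with Ccnd2 and -0.63 with Mki67, and its part in those levels was not tested. Choroid plexus markers spanned 91.2 to 32928 FPKM in TBI and 53.1 to 31844 FPKM in sham. Most of the highest sums was the single gene Ttr, at 32233 FPKM in TBI 1 and 31400 FPKM in sham 2. Meninges and matrix markers spanned 55.7 to 930 FPKM in TBI and 52.5 to 836 FPKM in sham, so libraries of either group differed widely in both lists. TBI 1 had the highest sum of both lists. There Pcna, Mcm2, Mcm4, the MCM sum, Orc1, Gmnn, Orc5, Gins4, Cdc25a, Cdk4, Gadd45a, Rbl2 and Prc1 were highest, and Mki67 and Prim1 lowest. Uhrf1, Cdk2, Aurkb and Mad2l1 were highest in other TBI libraries. TBI 1 also had the lowest sums of hippocampal neuron (2336 FPKM), astrocyte (1970 FPKM) and immature granule neuron markers (340 FPKM). The low sum of the granule neuron list did not hold for each of its markers. Neurod1 was highest in TBI 1, at 46.3 FPKM, against 12.7 to 15.2 FPKM in the other libraries. Dcx was at 3.52 FPKM in TBI 1, within its range of 2.31 to 4.54 FPKM over the libraries. No defining marker of the progenitor, granule neuron, precursor or microglia lists was at 0 in any library. With choroid plexus markers as a covariate the log2 difference of Pcna was 0.20, that of Mcm2 was 0.16 and that of Top2a was -0.05. In the same fit it was 0.27 for Gins4, 0.44 for Cdc25a, 0.43 for Prc1, 0.17 for Gadd45a and 0.74 for Aurkb. With meninges and matrix markers as a covariate it was 0.17 for Pcna, 0.22 for Mcm2 and 0.41 for Gins4.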

How the data were processed

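Transcripts were measured by RNA sequencing in 5 TBI and 5 sham hippocampus libraries. The authors deposited a table of FPKM per locus. The submitters' processing notes name TopHat, TopHat2, Bowtie, Bowtie2, Cufflinks, Cuffdiff and the rn5 build, with no role or version, and the annotation is not given in the sources used here. Depth cannot be recovered from FPKM, so no count test was used.

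Groups and library numbers came from the sample titles. Loci sharing a symbol were summed, and rows with a mean of at least 0.5 FPKM (16194 of 23824) were tested as log2(FPKM + 0.5) with limma 3.58.1 in R 4.3.3, with a mean trend, two-sided, and Benjamini-Hochberg adjustment over all rows at 0.05. The fit was tested on simulated data. The genes named are the 10 members, in each wider list every gene past adjustment and the 3 tested genes of at least 1 FPKM with the smallest p, and for Pcna, Mki67, Top2a, Ccnd2 and the MCM sum the 3 named genes of highest r. One gene that this rule names is not reported here. Genes listed below the filter, Pdgfra's values in full, and the values of Col1a1, Neurod1 and Dcx are additions chosen after values were seen. The members and lists were chosen with earlier results of these data known.

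The libraries of one number were checked for pairing, which the labels do not state, and were not treated as pairs. No 2 libraries had identical values. Alternatives changed the pseudocount, filter, scaling, trend, weights, covariates, row definition and libraries. Promoter sequences came from RefSeq (GRCr8) and their coordinates are not those of the files' build.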

Additional observations from a re-analysis of the deposited data

Results flagged for a closer look

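Within groups of 5 libraries, 3 values stood far from the others of their group, out of 50 groups tested by Dixon's criterion, which chance alone passes in about 1 group in 20. Cdc25a was at 14.3 FPKM in TBI 1, where the other 4 TBI libraries lay between 1.81 and 2.11 FPKM. Gins4 was at 6.19 FPKM in TBI 1, where the other 4 TBI libraries lay between 3.19 and 3.88 FPKM. Top2a was at 0.141 FPKM in sham 1, where the other 4 sham libraries lay between 0.287 and 0.337 FPKM. All 3 values are in TBI 1 or sham 1, the libraries that stand apart in the steps of their low values, and the part of that in these levels was not tested.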

How the results depend on the processing

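Of the 10 genes, 7 kept their direction in all 24 alternatives, although some of these, such as those of filter and trend, cannot change an estimate. None passed adjustment in any alternative that tested it, and Top2a and Mcm5 were tested only with no filter. Top2a, with a log2 difference of 0.03, turned to -0.044 under quantile normalization, -0.070 with array weights, -0.046 once choroid plexus markers were a covariate and -0.080 without both libraries numbered 1, and ran from -0.052 to 0.095 with single libraries left out, below 0 without TBI 1 (-0.01), TBI 3 (-0.052) or sham 1 (-0.03). Mcm5, at 0.09, turned to -0.056 with array weights and -0.042 without both libraries numbered 1, and ran from -0.00085 (without sham 1) to 0.20 with single libraries left out. Mcm6 turned to -0.017 under quantile normalization, where the median of the replication fork list was -0.031 and that of the cyclin list 0.013. The median of the cyclin list was 0.027 with array weights and 0.026 without sham 4. The median of the inhibitor list, at 0.042, was -0.042 with choroid plexus markers as a covariate, -0.047 without both libraries numbered 1 and -0.019 without TBI 1, and that of the fork list was also below 0 without TBI 2 (-0.0065) or TBI 4 (-0.00094). The cause was not tested.

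Over all rows, 0 passed adjustment, and 2 did with a term for the libraries numbered 1, an alternative chosen after seeing the data, and 0 to 2 with single libraries left out (2 without sham 4). None of these was a member or a gene of the wider lists. The count at an unadjusted p under 0.05 was 472, and it was 1318 with array weights, 850 without both libraries numbered 1, 746 with a term for them, and 338 to 773 with single libraries left out (743 without TBI 2, 773 without sham 2). With the replicate number as a block it was 672, none passed adjustment, and Pcna had a log2 difference of 0.17 with limma's adjusted p = 0.963. Correlations of the deviations of same-numbered libraries ran from -0.38 to 0.31, and 0 of 5 TBI libraries correlated best with the sham library of their own number. Top2a and Mcm5 lie below the filter, and the number of fragments behind them is unknown.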
